A study of Mus musculus with 2 samples.

Results

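The genes described here encode subunits of the pumps that hold sodium and calcium low inside cells. They were taken by gene symbol, and all 7 were found among the 21673 genes of the table: the Na,K-ATPase beta subunit genes Atp1b1, Atp1b2 and Atp1b3, the endoplasmic reticulum calcium pump gene Atp2a2, and the plasma membrane calcium pump genes Atp2b1, Atp2b2 and Atp2b4. Messenger RNA was sequenced from lenses of mice of strain C57BL/6, aged 60 postnatal days. The conditional knockout library (CKO) came from Le-Cre+/- Msx2fl/fl mice, and the control library (WT) from Msx2fl/fl mice without Cre. Both groups therefore carry the floxed alleles of Msx2, and they differ in the Le-Cre transgene as well as in Msx2 and, as given below, in RNA of the X and Y chromosomes. Le-Cre is active in the lens and in other derivatives of the surface ectoderm, so the deletion is not limited to the lens. With 1 library per genotype, and no record in the sources used here of how many animals each holds, every difference below describes these 2 libraries and none was set against variation between animals.

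The Na,K-ATPase moves sodium out of the cell and potassium in at the cost of ATP. Its alpha subunit is catalytic, and its beta subunit is a glycosylated partner needed for the alpha subunit to leave the endoplasmic reticulum and reach the membrane. Calcium is removed from the cytosol by plasma membrane calcium ATPases (PMCA), which expel it from the cell and are stimulated by calmodulin, and by sarco/endoplasmic reticulum calcium ATPases (SERCA), which store it in the endoplasmic reticulum. In the lens, which has no blood supply, these pumps are known for keeping fibre cells low in sodium and calcium, and a rise in lens calcium is associated with calpain activity and opacity.

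Levels are given as FPKM, a read count divided by gene length and by library size, which allows comparison between genes of different length. The reads behind each value were recovered from the table and summed to 17165504 in CKO and 20784737 in WT. Msx2 was at 0.0392 FPKM in CKO, on 3 reads, against 6.21 FPKM in WT, on 311 reads. Crystallin reads were 40.1% of the CKO library and 61.6% of the WT library. Sex-linked RNA differed too, with Xist, transcribed from the inactive X chromosome, at 16251 reads in CKO and 35 in WT, and Eif2s3y, of the Y chromosome, at 0 reads in CKO against 819 in WT. Sex and genotype can therefore not be told apart in any difference between these libraries. A gene was counted as measured at a mean of 1 FPKM or more over both libraries, and as higher or lower in CKO if its log2 ratio of FPKM + 1 reached 2-fold. Of 10757 measured genes, 5.83% were higher and 2.93% lower by this size rule, and the median log2 ratio was -0.016. Ratios in the text are plain FPKM ratios, CKO over WT, with exact 95% intervals that cover counting error only.

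Of the 7 pump genes 6 were measured, and 2 of these, Atp1b2 and Atp2b1, were higher in CKO by the size rule, against 5.83% of all measured genes. None was lower. Atp1b1, Atp1b3, Atp2a2 and Atp2b4 lay within 2-fold, and Atp2b2 was below the level needed to be measured. The median log2 ratio of the measured 6 was 0.52, with Atp2b4 among them reaching the mean of 1 FPKM only through its CKO level. The values fell into 2 kinds: Atp1b1, Atp1b3 and Atp2a2 had nearly equal FPKM in the libraries, while Atp1b2 and all 3 PMCA genes had plain ratios from 3.81 to 9.04. A plain ratio of 2 or more was seen in 8.51% of all measured genes, a set that does not include Atp2b2.

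**Figure D1:**
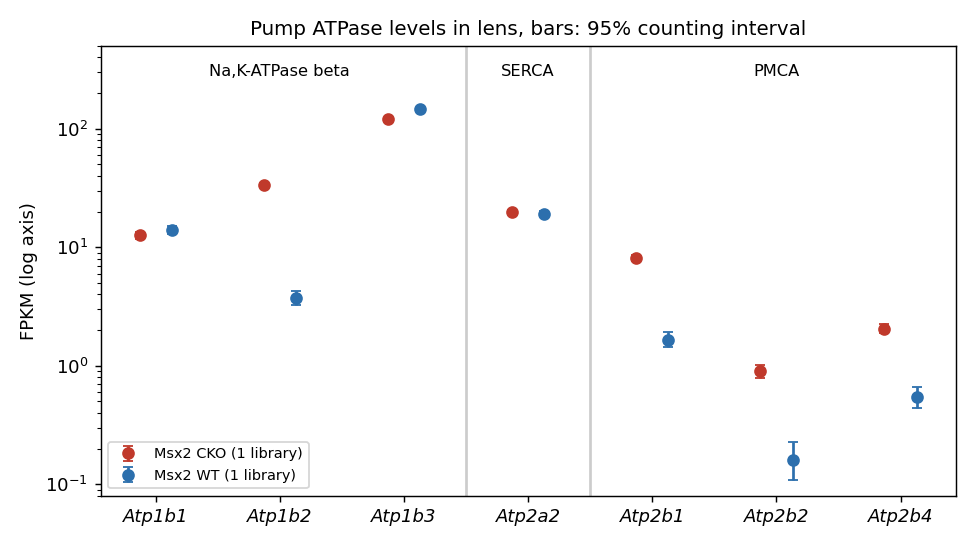
Level of each pump gene in the CKO library (red) and the WT library (blue), in FPKM on a log axis, with bars for the 95% counting interval of each single library. Atp1b2 and the 3 PMCA genes were higher in CKO with intervals that do not overlap, while Atp1b1, Atp1b3 and Atp2a2 lay close together. The intervals of Atp1b3 did not overlap either, with its lower level in CKO.

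Among the beta subunit genes the isoform makeup differed between the libraries. Atp1b2 encodes the beta 2 subunit, also called AMOG, an adhesion molecule of glia that is abundant in brain and retina. Atp1b2 (ENSMUSG00000041329, chromosome 11, 69599736 to 69605942, minus strand, GRCm38) was at 33.8 FPKM in CKO on 3224 reads, against 3.74 FPKM in WT on 233 reads. Its level was 9.04-fold higher in CKO (7.91 to 10.4), a log2 ratio of FPKM + 1 of 2.88, and 0.744% of measured genes had a higher ratio. In CKO it was a gene of high level, exceeded by 6.12% of measured genes, whereas in WT 51.1% exceeded it.

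Photoreceptor markers moved in the same direction between the same libraries. Of 28 markers 27 were measured and all 27 were higher in CKO, with a median log2 ratio of 3.86 and a summed level of 979 FPKM in CKO against 60.1 FPKM in WT. Some of the 27, such as Rcvrn at 0.945 FPKM in WT, reached the mean of 1 FPKM only through CKO. Over all measured genes 5.83% were higher and 2.93% lower. None of the 28 photoreceptor markers had 0 reads in either library. Gnat1, the gene of rod transducin, was at 164 FPKM in CKO and 3.55 FPKM in WT, and Gnb1, a G protein gene also expressed in many other tissues, was at 100.6 FPKM in CKO and 33.5 FPKM in WT. Of 20 measured markers of inner retina and glia 14 were higher in CKO, with a summed level of 650 FPKM in CKO and 255 FPKM in WT, again with no marker at 0. Most of both sums was Apoe, at 399 FPKM in CKO and 156 FPKM in WT, and Glul, at 93.2 and 38.3 FPKM. Some of the 14, such as Snap25 at 0.328 FPKM in WT, reached the mean of 1 FPKM only through CKO. The other 6 lay within 2-fold, among them Prkca, Trpm1 and Sox2 with ratios of 1.09, 0.947 and 0.736. The part of the photoreceptor, inner retina and glia markers in the Atp1b2 difference was not tested. In whole tissue, a different number of cells of a type and a different amount of RNA per cell cannot be told apart.

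The other beta subunit genes showed no such difference. Atp1b3, the beta 3 subunit gene, was the most abundant of the 7 pump genes in both libraries, at 121 FPKM in CKO and 146 FPKM in WT on 6734 and 5342 reads, and 1.71% of measured genes exceeded it in each. Its ratio was 0.824 (0.794 to 0.854). Atp1b1, the gene of the beta 1 subunit found in most tissues, was at 12.6 FPKM in CKO and 14.1 FPKM in WT on 910 and 661 reads, a ratio of 0.899 (0.813 to 0.996). The direction of both depended on the scaling, since their log2 ratios of -0.28 and -0.14 became 0.61 and 0.69 when the libraries were scaled to their read totals, which moved the median of all measured genes up by 0.70. Atp1b3 (ENSMUSG00000032412) lies on chromosome 9 from 96332655 to 96364442, and Atp1b1 (ENSMUSG00000026576) on chromosome 1 from 164437109 to 164458355, both on the minus strand. Nme7, on the opposite strand, overlaps Atp1b1 by 617 bases, and Nme7 itself had 111 reads in CKO and 53 in WT.

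Ratios between genes of one library do not depend on how libraries are scaled. Atp1b2 stood at 0.28 of the Atp1b3 level in CKO and at 0.0255 of it in WT, a ratio of these ratios of 10.98 (9.56 to 12.7). Relative to Atp1b1 it stood at 2.67 in CKO and 0.266 in WT, so the order of Atp1b1 and Atp1b2 was opposite in the libraries. Atp1b1 relative to Atp1b3 was 0.105 in CKO and 0.0959 in WT, and the interval of that ratio of ratios included no difference (0.981 to 1.22). Atp1b2 made up 20.2% of the summed beta subunit FPKM in CKO and 2.27% in WT. Atp1b3 made up 72.2% in CKO and 89.2% in WT, and Atp1b1 7.57% in CKO and 8.56% in WT.

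Summed over isoforms, the beta subunit genes were nearly level between the libraries with the deposited scaling, at 167 FPKM in CKO and 164 FPKM in WT. Their summed reads were 10868 in CKO and 6236 in WT.

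**Figure D2:**
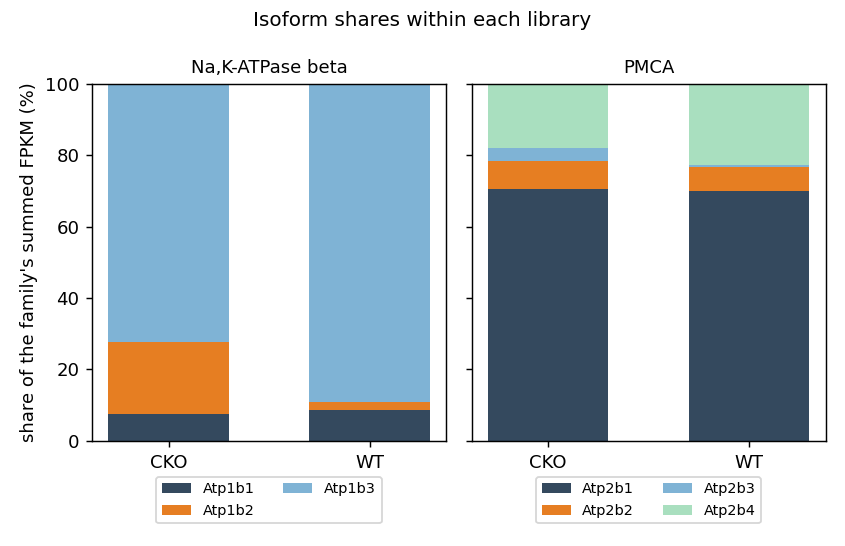
Share of each isoform gene in the summed FPKM of its family, in percent, for the CKO bar and the WT bar of the Na,K-ATPase beta and PMCA genes. Atp1b2 took 20.2% of its family in CKO and 2.27% in WT, while Atp2b1 took 70.5% in CKO and 69.9% in WT.

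FXYD proteins are small membrane partners that tune the affinity of the Na,K-ATPase for its ions. Of 7 FXYD genes 3 were measured. The 2 that were higher by the size rule, Fxyd5 and Fxyd6, reached the mean of 1 FPKM only through the CKO library, so they had to differ and their count says nothing about the list. Fxyd5, the gene of dysadherin, was at 3.51 FPKM in CKO and 0.0469 FPKM in WT, on 344 and 3 reads, a ratio of 74.9 (25.4 to 365). Fxyd6 was at 4.01 FPKM in CKO and 0.293 FPKM in WT, on 168 and 8 reads, a ratio of 13.7 (6.80 to 32.3). Fxyd1, the gene of phospholemman, was the most abundant, at 36.6 FPKM in CKO and 48.1 FPKM in WT, and lay within 2-fold with a ratio of 0.762 (0.712 to 0.815).

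The SERCA gene Atp2a2 encodes the pump isoform that fills the endoplasmic reticulum in most cells and the sarcoplasmic reticulum in heart. It was at 19.9 FPKM in CKO on 2827 reads, against 19.2 FPKM in WT on 1784 reads. The ratio of 1.04 had an interval that included no difference (0.975 to 1.099), and 10.95% of measured genes exceeded its level in CKO and 12.3% in WT. Scaled to read totals, the log2 ratio of 0.05 became 0.89, still within 2-fold. Atp2a2 (ENSMUSG00000029467) occupies 122453513 to 122502225 on chromosome 5, minus strand. Reads were counted over the whole gene, so its splice forms are not separated.

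All 3 PMCA genes had more reads per length in CKO. Atp2b1, the PMCA gene expressed in most tissues, was at 8.07 FPKM in CKO on 1345 reads, against 1.66 FPKM in WT on 181 reads, 4.85-fold higher (4.15 to 5.70). Its log2 ratio of 1.77 passed the size rule, and 2.56% of measured genes had a higher one. Atp2b4 was at 2.06 FPKM in CKO on 589 reads, against 0.54 FPKM in WT on 101 reads, a plain ratio of 3.81 (3.08 to 4.75). At a log2 ratio of 0.99 it fell just short of 2-fold, because adding 1 FPKM compresses ratios at this level, and with 0.1 FPKM added it was 1.75, past 2-fold along with 8.14% of measured genes. Atp2b2, the PMCA gene known for its role in hair cells of the ear and in neurons, was at 0.896 FPKM in CKO on 264 reads, against 0.161 FPKM in WT on 31 reads, a plain ratio of 5.56 (3.83 to 8.35). It was not measured under the rule, as its mean was 0.528 FPKM. Each of the 3 genes is above its WT interval in CKO, and the smallest count behind them is the 31 reads of Atp2b2 in WT.

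The proportions among Atp2b1, Atp2b2 and Atp2b4 differed less between the libraries than the PMCA sum did, whereas Atp2b3 held a larger share in CKO. With Atp2b3, the remaining gene of the family, they summed to 11.5 FPKM in CKO and 2.38 FPKM in WT, a ratio of 4.82. Atp2b1 made up 70.5% of that sum in CKO and 69.9% in WT, Atp2b2 7.82% in CKO and 6.77% in WT, Atp2b4 17.97% in CKO and 22.7% in WT, and Atp2b3 3.72% in CKO and 0.572% in WT. The ratio of Atp2b1 to Atp2b4 was 3.92 in CKO and 3.08 in WT, and that of Atp2b1 to Atp2b2 was 9.01 in CKO and 10.3 in WT. The intervals of both ratios of ratios included no difference, 0.97 to 1.67 and 0.563 to 1.32. Atp2b3, which lies on the X chromosome, was at 0.426 FPKM in CKO and 0.0136 FPKM in WT on 48 reads and 1 read, a ratio of 31.4 (5.37 to 1264).

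Set against the SERCA gene within each library, the PMCA genes stood higher in CKO whatever the scaling. Atp2b1 was at 0.406 of the Atp2a2 level in CKO and at 0.0865 of it in WT, a ratio of ratios of 4.69 (3.97 to 5.57). The same comparison gave 3.68 (2.95 to 4.63) for Atp2b4 and 5.37 (3.67 to 8.11) for Atp2b2. Among the 4 calcium pump genes of the group, Atp2a2 held 64.3% of the summed FPKM in CKO and 89.0% in WT. The photoreceptor and inner retina markers given beside Atp1b2 differ between these libraries in the same direction. Leukocyte markers were higher in 6 of 8 measured and lower in 1, against 5.83% and 2.93% of all measured genes. Of the higher ones Ctss, C1qb and C1qc, at 0.675, 0.963 and 0.746 FPKM in WT, reached the mean of 1 FPKM only through CKO. The lower one, H2-Eb1, at 0.470 FPKM in CKO, reached it only through WT. The summed levels of the leukocyte markers were 48.4 FPKM in CKO and 12.2 FPKM in WT, with none at 0. Ptprc, a marker of all leukocytes, had 13 reads in CKO and 7 in WT. The part of these cells in the PMCA differences was not tested.

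Whether reads of one PMCA gene could be counted for another bears on these values, so their coding sequences were compared in GENCODE M21. The genes are alike in 72.1% to 74.5% of aligned coding bases, and each lies on its own locus: Atp2b1 (ENSMUSG00000019943) on chromosome 10 from 98915152 to 99026143 (plus strand), Atp2b2 (ENSMUSG00000030302) on chromosome 6 from 113743831 to 114042613 (minus strand), and Atp2b4 (ENSMUSG00000026463) on chromosome 1 from 133699457 to 133801041 (minus strand). These are the deposited positions, and GENCODE M21 starts Atp2b1 at 98914406. The longest identical run between any pair of the 3 coding sequences had 26 bases. Atp2b3, untranslated regions and longer stretches alike but for a mismatch were not compared. The longest identical run of each pair is printed next.
Atp2b1 and Atp2b4: atgatgaagaacatcttgggccatgc
Atp2b2 and Atp2b4: atgggcatcgcaggcacagatgtggc
Atp2b1 and Atp2b2: gtgcagtttggcgggaagcc
The third of these has 20 bases. Between beta subunit genes the longest identical run had 19 bases, in Atp1b1 and Atp1b2, whose coding sequences were alike in 64.1% of aligned bases. The sources used here do not give the read length.

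Promoter sequence was at hand in RefSeq (GRCm38.p6) for 5 of the 7 genes, Atp1b2 and Atp2a2 being without an entry. A gene that was higher in CKO and one that was not are shown, both with a window that overlaps no exon of GENCODE M21. Each is the 250 bases before an annotated start, 5′ to 3′ on the gene's strand, with matches to GGGCGG (the Sp1 box) and CCAAT on either strand in capitals. The Atp2b1 window is chr10:98914902-98915151 on the plus strand and the Atp1b1 window is chr1:164458356-164458605 on the minus strand. GENCODE M21 starts Atp2b1 further upstream, at 98914406, so the printed Atp2b1 window lies within the gene as annotated there. Another Atp2b1 window, chr10:98914392-98914641, is not printed because an annotated exon overlaps it. It held 4 matches to GGGCGG, overlapping ones included.
Atp2b1: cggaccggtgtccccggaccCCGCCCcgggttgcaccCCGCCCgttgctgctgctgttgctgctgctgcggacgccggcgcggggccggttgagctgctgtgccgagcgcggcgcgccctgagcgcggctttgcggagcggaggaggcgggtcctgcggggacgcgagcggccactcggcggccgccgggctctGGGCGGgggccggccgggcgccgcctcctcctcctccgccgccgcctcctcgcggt
Atp1b1: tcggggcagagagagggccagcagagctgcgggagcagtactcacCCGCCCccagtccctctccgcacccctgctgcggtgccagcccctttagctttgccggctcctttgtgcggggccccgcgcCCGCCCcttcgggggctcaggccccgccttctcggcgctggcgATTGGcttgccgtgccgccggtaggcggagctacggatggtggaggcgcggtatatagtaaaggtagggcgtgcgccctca
The printed Atp2b1 window held 3 matches to GGGCGG, and the Atp1b1 window held 2 along with 1 match to CCAAT, with no overlap between matches. GGGCGG occurred in 32.7% of 32851 such windows and CCAAT in 33.8%. Neither window held TAATTG, a sequence bound by Msx proteins, found in 7.17% of windows, nor TAATCC, bound by Crx and Otx proteins, found in 6.25%. The Atp2b4 window, not printed because annotated exons overlap it, held 1 match to the sequence bound by Msx proteins. TATAAA and CACGTG were also searched on both strands, occurred in 12.4% and 6.02% of windows, and were in neither. Guanine and cytosine made up 80.8% of the Atp2b1 window and 70.4% of the Atp1b1 window, against a median of 52.4% over all windows.

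The higher values of Atp1b2 and the PMCA genes kept their direction under each of 4 scalings. From the deposited scaling to library totals, the plain log2 ratio of Atp1b2 ran from 3.18 to 4.07, that of Atp2b1 from 2.28 to 3.17, that of Atp2b2 from 2.48 to 3.37 and that of Atp2b4 from 1.93 to 2.82. By the size rule Atp2b4 joined the higher genes under library totals, with a log2 ratio of 1.44, and under totals without crystallins, with 1.48. Under totals without crystallins Atp2b2 was also measured and passed, with 1.21. Over all measured genes, genes higher in CKO made up 66.6% of those past 2-fold with the deposited scaling, 96.8% under library totals and 80.1% under totals without crystallins.

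**Figure D3:**
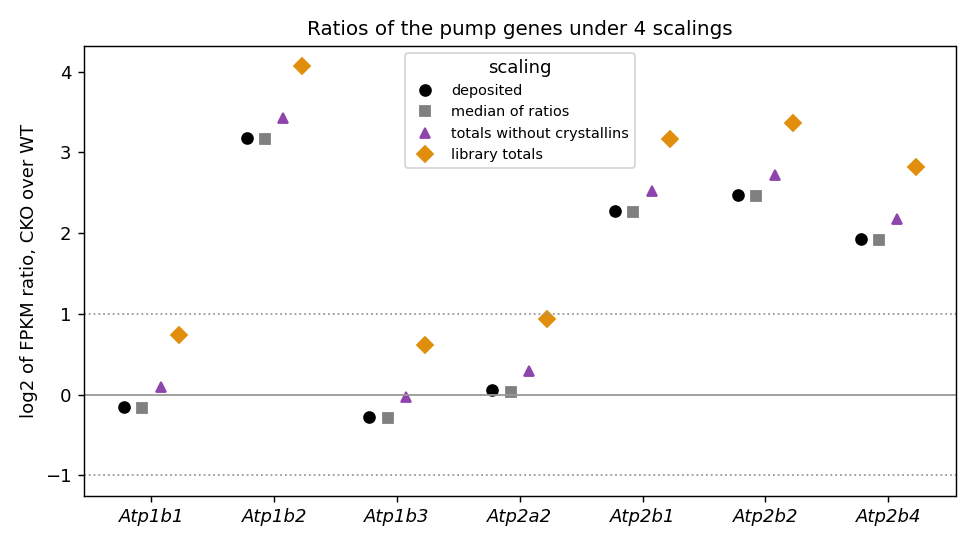
Plain log2 FPKM ratio, CKO over WT, of each pump gene under the deposited scaling and 3 others, with dotted lines at 2-fold in either direction. Atp1b2, Atp2b1, Atp2b2 and Atp2b4 lie above 1 under each, while Atp1b1, Atp1b3 and Atp2a2 lie between -0.29 and 0.94.

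In the order of levels the libraries differed mainly in the place of Atp1b2. In CKO the order from the highest was Atp1b3, Atp1b2, Atp2a2, Atp1b1, Atp2b1, Atp2b4 and Atp2b2. In WT it was Atp1b3, Atp2a2, Atp1b1, Atp1b2, Atp2b1, Atp2b4 and Atp2b2. No 2 neighbours in either order had overlapping counting intervals, although with a single library these intervals leave out the spread between animals. Over the 2 libraries, the protein-coding genes with FPKM nearest to those of Atp1b2 were H2-D1, at 32.4 FPKM in CKO and 3.48 FPKM in WT, and B2m, at 33.7 FPKM in CKO and 5.10 FPKM in WT. Those nearest to Atp2b1 were Pacsin1, at 8.39 FPKM in CKO and 1.64 FPKM in WT, and C1qa, at 8.56 FPKM in CKO and 1.70 FPKM in WT. Nearness was the distance in log2(FPKM + 1) among 9839 genes, and rests on 2 values per gene.

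Proteins that bind or steady the calcium pumps showed no difference past the size rule. Of 8 such genes 4 were measured and all 4 lay within 2-fold, with a median log2 ratio of 0.02, although 2 were higher under library totals. The calmodulin genes Calm2 and Calm3 were at 75.9 and 154 FPKM in CKO and at 46.3 and 182 FPKM in WT. Nptn and Bsg, which encode the auxiliary PMCA subunits neuroplastin and basigin, were at 9.68 and 165 FPKM in CKO and at 8.06 and 188 FPKM in WT. The Golgi calcium and manganese pump gene Atp2c1, the only other calcium pump gene measured, was at 6.39 FPKM in CKO and 6.25 FPKM in WT, a ratio of 1.02 (0.941 to 1.11).

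Among sodium-calcium exchangers, which expel calcium using the sodium gradient, 1 of 6 measured genes was higher and 1 lower. The shares over all measured genes were 5.83% higher and 2.93% lower. Slc24a1, which encodes the exchanger of rod outer segments, was at 17.9 FPKM in CKO and 0.616 FPKM in WT, 29.1-fold higher (21.9 to 39.4), and reached the mean of 1 FPKM through its CKO level. Slc24a4 was at 17.7 FPKM in CKO and 37.4 FPKM in WT, a ratio of 0.473 (0.446 to 0.503) and a log2 ratio of -1.04. That call was lost under library totals and under totals without crystallins, where no exchanger gene was lower by the size rule. The sums over the listed exchanger genes were close, 49.3 FPKM in CKO and 51.0 FPKM in WT.

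Genes of calcium entry and release were all within 2-fold, 14 of 14 measured, with a median log2 ratio of -0.04. Under library totals 3 were higher, and under totals without crystallins 2. With 0.1 FPKM added, Itpr3, an inositol trisphosphate receptor gene, and Trpc1, a cation channel gene, passed 2-fold upward at log2 ratios of 1.03 and 1.32, and Cacna1a, a calcium channel gene, downward at -1.25. The most abundant, the cation channel gene Trpm3, was at 29.1 FPKM in CKO and 33.3 FPKM in WT. Of 10 measured genes for calcium-binding proteins of the endoplasmic reticulum 9 lay within 2-fold, and Casq1, the gene of a calsequestrin, was lower at 6.997 FPKM in CKO and 18.2 FPKM in WT, a ratio of 0.385 (0.334 to 0.442). Its call was lost under library totals. With the deposited scaling 2.93% of all measured genes were lower. Calr, the gene of calreticulin, was at 61.0 FPKM in CKO and 56.9 FPKM in WT.

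Transporters that spend the sodium gradient made by the Na,K-ATPase held 1 higher and 1 lower gene among 11 measured. Over all measured genes 5.83% were higher and 2.93% lower. Slc4a7, a sodium bicarbonate cotransporter gene, was at 3.27 FPKM in CKO and 0.931 FPKM in WT, 3.52-fold higher (2.85 to 4.37), with a WT level under 1 FPKM. Slc1a4, a neutral amino acid transporter gene, was at 5.19 FPKM in CKO and 12.8 FPKM in WT, a ratio of 0.406 (0.362 to 0.456). No gene of this list was lower under library totals or under totals without crystallins, and under library totals 6 were higher. The most abundant, the taurine transporter gene Slc6a6, was at 62.4 FPKM in CKO and 50.6 FPKM in WT.

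**Figure D4:**
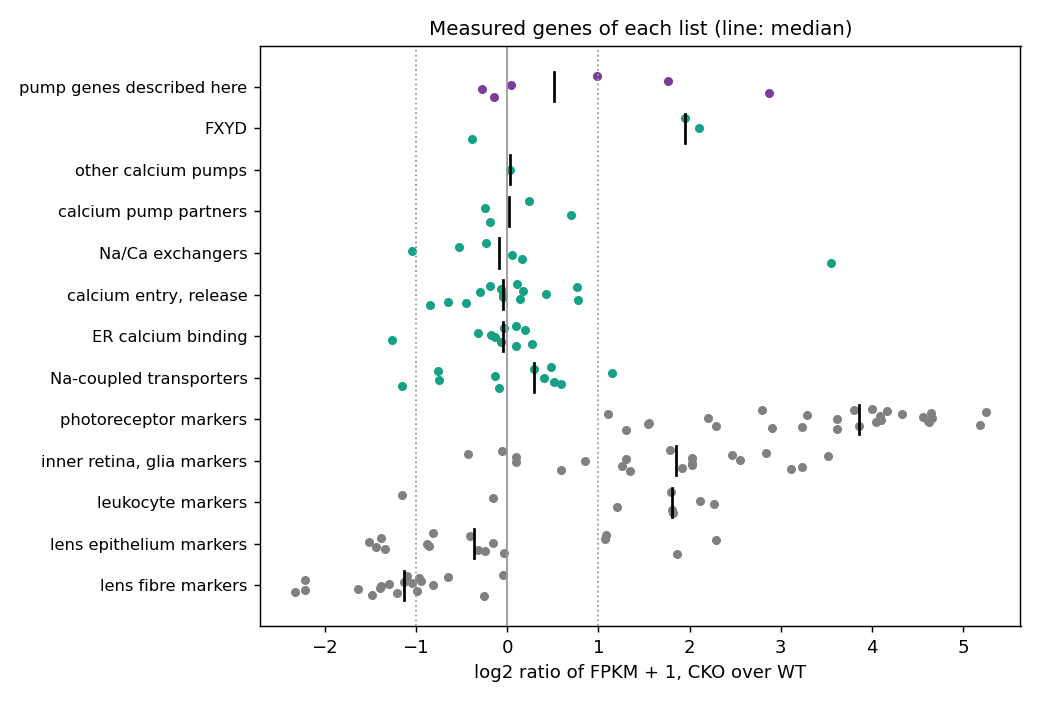
Log2 ratio of FPKM + 1, CKO over WT, of each measured gene in the pump genes (purple), related ion transport lists (green) and marker lists (grey), with a line at each median and dotted lines at 2-fold. The ion transport medians other than that of the FXYD genes lie between -0.09 and 0.30, while photoreceptor markers have a median of 3.86 and lens fibre markers one of -1.13.

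Markers of the lens itself were present in both libraries at high levels. Of all measured genes 5.83% were higher and 2.93% lower, the shares to set beside the counts below. Lens fibre markers were lower in 12 of 19 measured and higher in none, with summed levels of 46804 FPKM in CKO and 124251 FPKM in WT, led by Cryba1 and Grifin. Lens epithelium markers, the compartment where Na,K-ATPase activity is known to be greatest, were higher in 4 and lower in 4 of 16 measured, with a median log2 ratio of -0.36. After its crystallins the most abundant gene of that list was Sfrp1, which encodes a secreted Wnt antagonist, at 152 FPKM in CKO and 267 FPKM in WT. Foxe3, a transcription factor gene of the lens epithelium, was at 63.0 FPKM in CKO and 116 FPKM in WT, and Aqp5, a water channel gene, at 57.8 FPKM in CKO and 59.2 FPKM in WT. The 4 higher genes were Krt18 with a ratio of 6.90 (5.002 to 9.75), Aqp1 with 4.44 (3.69 to 5.39), Lmo7 with 3.95 (3.22 to 4.89) and Pdpn with 2.17 (1.98 to 2.37), of which Lmo7 was measured only through its CKO level. The 4 lower genes were Gja1 with a ratio of 0.337 (0.316 to 0.360), Npnt with 0.347 (0.316 to 0.380), Cryab with 0.369 and Cryaa with 0.396. The crystallin genes of the fibre list, Cryba1 and Crybb1, had ratios of 0.322 and 0.381. Whether the Cryab and Cryaa values reflect epithelium or fibres was not tested. Under library totals 3 fibre markers were lower, while of the epithelium markers 4 were higher and none lower. Pigment epithelium, iris and ciliary body markers were lower in 2 of 5 measured and higher in none, with summed levels of 14.8 FPKM in CKO and 33.3 FPKM in WT. The lower genes were Car14, at 5.70 FPKM in CKO and 19.9 FPKM in WT, and Oca2, at 0.0756 FPKM in CKO and 2.497 FPKM in WT, which reached the mean of 1 FPKM only through WT. The pigment genes Tyrp1 and Dct had ratios of 1.21 (0.911 to 1.62) and 1.05 (0.788 to 1.40), with intervals that included no difference. Under library totals none was lower by the size rule. Their 2 most abundant genes were Car14 and Ttr, and none of the 14 was at 0. Of 13 listed ocular surface markers 7 had deposited values, with Krt12, Krt5, Muc4, Kera, Lum and Psca absent. Among those present 4 were measured and 2 were higher. The higher ones were Lypd2, at 166 FPKM in CKO and 0.193 FPKM in WT, and Aldh3a1, at 169 FPKM in CKO and 11.6 FPKM in WT. The other measured ones, Krt4 and Tkt, had ratios of 0.513 (0.338 to 0.776) and 0.667 (0.645 to 0.691), and the keratin gene Krt14 and the uroplakin gene Upk1b had 0 reads in CKO and 2 and 6 in WT. Markers of blood vessels were higher in 1 of 3 measured, and summed to 16.6 FPKM in CKO and 16.3 FPKM in WT. Most of that sum in WT was Pdgfrb, a pericyte gene, at 7.80 FPKM in CKO and 14.2 FPKM in WT. The endothelial receptor gene Kdr was at 2.87 FPKM in CKO and 0.181 FPKM in WT, on 606 and 25 reads, a ratio of 15.8 (10.6 to 24.7), and was measured only through its CKO level. Cldn5, a tight junction gene of endothelium, had 64 reads in CKO and 1 in WT. Tek was at 2.30 FPKM in CKO and 1.57 FPKM in WT, and Emcn alone was at 0 reads in WT. Their part in the pump gene differences was not tested. Muscle markers were lower in 1 of 4 measured, Pvalb, and summed to 164 FPKM in CKO and 203 FPKM in WT, almost all of it Acta2.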

How the data were processed

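Lens mRNA of 1 CKO and 1 WT library was analysed. Tools listed in the submitters' processing notes, with no roles, are DESeq2 1.10.1, HTSeq 0.6.0 and STAR 2.5.1b. No genome build or strand setting is stated in the sources used here. The deposited values were taken as FPKM, since value times gene length gave whole multiples of 1 step per library for 100% of values (within 0.001 of a read). That step corresponds to effective libraries 1.36 (CKO) and 0.735 (WT) times the recovered read totals, so the authors' FPKM are scaled for composition. The design had allowed for counts; the rule for FPKM was used. Of the gene IDs, 99.5% were found in GENCODE M21 (GRCm38), 85.9% of those with the same start.

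Python 3.11.15, scipy 1.17.1 and biopython 1.88 were used. Ratios have exact conditional binomial (Clopper-Pearson) intervals, levels exact Poisson intervals, and ratios of ratios conditional odds ratio intervals. No p-value was computed. The ratio and interval code was tested on simulated counts. Named genes were all 7 pump genes, genes of 7 related lists past the size rule, nearest genes of pump genes past it, and the 2 most abundant genes of each of 9 marker lists. A few genes and sequences are not reported here. Some further genes of these lists were named after their values were seen. The members and lists were chosen with earlier results of these data known. Alternatives were a pseudocount of 0.1 FPKM, 3 other scalings, no filter, and a minimum of 10 reads.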

Additional observations from a re-analysis of the deposited data

How the results depend on the processing

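Of the measured pump genes 2 passed the size rule, and 2 also did so under median-of-ratios scaling, without a filter and with at least 10 reads. The count was 3 with a pseudocount of 0.1 FPKM and under library totals, and 4 under totals without crystallins, all of them higher in CKO. Over all measured genes the count of 942 became 2307 under library totals and 1724 under totals without crystallins. These scalings move every plain log2 ratio by 0.89 and 0.25, and change the number of measured genes from 10757 to 10996 and 13127, as levels shift against the filter and the pseudocount. Genes lower in CKO numbered 315, against 73 under library totals and 343 under totals without crystallins. How much each of these contributes was not tested. Taken as shares of reads, not per length, Atp1b2 held 29.7% of the beta subunit genes in CKO and 3.74% in WT, and Atp2b1 59.9% of the PMCA genes in CKO and 57.6% in WT. Of 28 alternative log2 ratios of single pump genes 16 lay further from the main value than a set limit. The limit was the distance from the midpoint of the gene's log2 counting interval, that of the plain ratio, to its end. A value past the limit could still lie inside that interval. Of the alternative counts for the related and marker lists 106 stayed within 1.5 times and 22 did not.

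No paired analysis was possible because each genotype has 1 library, and for the same reason no library was left out in turn. Depth limits Atp2b2 most, with 31 reads in WT.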

Other observations

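Several pump, exchanger and channel genes below the level needed to be measured also had more reads in CKO. Atp2a3, the SERCA gene known from blood cells and epithelia, was at 0.616 FPKM in CKO and 0.0868 FPKM in WT, on 76 and 7 reads, a ratio of 7.09 (3.28 to 18.2). Slc8a3, a sodium-calcium exchanger gene, was at 1.003 FPKM in CKO and 0.0983 FPKM in WT, on 125 and 8 reads, a ratio of 10.2 (5.02 to 24.2). Fxyd7, a FXYD gene known from brain, was at 1.30 FPKM in CKO and 0.189 FPKM in WT, on 21 and 2 reads, a ratio of 6.86 (1.68 to 60.3). Ryr3, a ryanodine receptor gene, was at 0.151 FPKM in CKO and 0.0311 FPKM in WT, on 67 and 9 reads, a ratio of 4.86 (2.41 to 11.1). These genes were picked after their values were seen. Not all low genes ran this way: Trpv1 was at 0.0465 FPKM in CKO and 0.249 FPKM in WT, on 4 and 14 reads, a ratio of 0.187 (0.0447 to 0.594).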
